A study of Mus musculus with 8 samples.

Results

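The 40 genes described here are Myc, which encodes the transcription factor MYC, 3 enzymes of polyamine and pyrimidine synthesis that are classical MYC targets (Srm, Odc1 and Cad), and 36 genes of ribosome biogenesis. The list was given by name and by no threshold on measured values, but it was chosen with earlier results of these data known. All 40 had a probe on the Agilent dual-colour array, and the brightest probe stood for each gene. Of these, 39 were measured and tested among 18003 genes. Cad (probe at chr5:31369954-31370013, mm9) was not well above background in any of the 16 channels and was not tested. All 39 others were well above background in all 16 channels, and none was saturated.

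The study compared cytoplasmic RNA of bone marrow derived macrophages from ERT2 Cre Thoc5 (flox/flox) mice, called flox here, and from ERT2 Cre mice, called control. THOC5 is a subunit of the THO complex, which takes part in mRNA export. Both genotypes carried ERT2 Cre, a recombinase that tamoxifen activates, on a C57BL/6 x B6:129 Ola background. The promoter that drives the Cre, the ages of the mice and any pooling were not given in the sources used here. The 4 groups were flox cells at day 3 of CSF-1 with tamoxifen, flox cells at day 3 without it, control cells at day 3 with tamoxifen, and control cells at day 3 without it. Each had 2 arrays, 1 from each of 2 biological experiments. Each array paired day 3 RNA with a day 0 extract that both arrays of that genotype and experiment shared. Values below are log2 ratios of day 3 over day 0, unless a sentence says otherwise, and experiment 1 is given before experiment 2. Experiment 2 was labelled with the dyes swapped and lay on another slide, so experiment, dye direction and slide cannot be told apart.

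MYC binds DNA together with MAX and raises transcription of genes for cell growth. Many of these genes serve the nucleolus, where RNA polymerase I makes the ribosomal RNA precursor, small nucleolar ribonucleoproteins (snoRNPs) guide its modification, and processing factors cut and fold it into the small and large ribosomal subunits. Dividing progenitors need many ribosomes, and the expression of these genes usually falls as myeloid cells leave the cell cycle.

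Between 52% and 58.6% of the spots of a channel were well above background. Thoc5 checked the labels: its log2 ratio was -3.04 and -3.02 in flox cells with tamoxifen, against -0.74 and -0.77 in flox cells without it. The tamoxifen effect on Thoc5 was -2.27 ± 0.10 (SE) in flox cells and 0.16 ± 0.10 in control cells. All 11 measured macrophage markers were well above background at day 3 on all 8 arrays. So were the 12 neutrophil and precursor markers, whose median log2 ratio lay between -3.86 and -3.28 over the arrays. In RNA from mixed cells, fewer cells of a type and less RNA per cell cannot be told apart. A gene is said to be called, or to have risen or fallen, when its Benjamini-Hochberg adjusted p in limma, over all genes tested, was below 0.05. The fit has an experiment term, and with 2 experiments its error has 3 residual degrees of freedom per gene.

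Most of the 39 genes stood lower at day 3 than at day 0, and by most in flox cells with tamoxifen. In that group 27 fell, 6 rose and 6 were not called, with a median log2 ratio of -0.61. Among all genes tested 58.9% were called in that group, 33.4% as lower and 25.5% as higher. In flox cells without tamoxifen 11 fell and 8 rose (median -0.14), where 57.2% of all genes were called, 33.4% lower and 23.8% higher. In control cells with tamoxifen 21 fell and 6 rose (median -0.35), against 57.7% called, 33.8% lower and 23.9% higher. In control cells without tamoxifen 18 fell and 5 rose (median -0.25), against 57.3% called, 34.1% lower and 23.3% higher. The share called in flox cells without tamoxifen, 48.7%, was below that of all genes, and that in control cells without tamoxifen, 59.0%, was near it. The median of all genes tested lay between -0.06 and -0.05 in the 4 groups. Leaving out experiment 1 of flox cells without tamoxifen gave 12 lower and 3 higher in that group (median -0.35), and leaving out experiment 2 gave 5 lower and 8 higher (median 0.03). Leaving out either array of flox cells with tamoxifen gave 2 or 3 higher in place of 6. In control cells without tamoxifen, leaving out experiment 1 gave 10 lower, and leaving out experiment 2 gave 2 higher.

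Markers of cell types and of division also differed between day 3 and day 0. By median, the dividing cell markers were lowest in control cells without tamoxifen, and the 39 genes in flox cells with it. Of 12 dividing cell markers 12, 11, 12 and 12 fell in flox cells with tamoxifen, flox cells without it, control cells with tamoxifen and control cells without it, with medians of -1.36, -1.05, -1.23 and -1.77. Of 9 stem and progenitor markers 7, 7, 7 and 6 fell in the same order (medians from -1.30 to -1.15), and 1 rose in flox cells with tamoxifen. All 7 megakaryocyte and platelet markers fell in each group. Of 11 macrophage markers 8, 7, 8 and 8 rose. Not all markers of that list moved this way: in flox cells 3 fell with tamoxifen and 2 without it. The part of all these markers in the ratios of the 39 genes was not tested.

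The ratios differed between the experiments. The ratio in experiment 1 was below that in experiment 2 for 37 of the 39 genes in flox cells with tamoxifen, for 35 in flox cells without it, for 37 in control cells with tamoxifen and for 37 in control cells without it. The median difference, experiment 1 minus experiment 2, ran from -0.71 in control cells without tamoxifen to -0.24 in flox cells without it, whereas over all genes it stayed between -0.02 and 0.00. In control cells without tamoxifen the median of the 39 was -0.64 in experiment 1 and 0.12 in experiment 2. The experiment term takes a shift that all groups share out of the error. Without that term 24 of the 39 were called in flox cells with tamoxifen, 8 in flox cells without it, 14 in control cells with it and 12 in control cells without it. Of the genes called lower, 27 of 27, 11 of 11, 19 of 21 and 16 of 18 in the same order of groups were below 0 on both arrays, and every gene called higher was above 0 on both. Without either of its own arrays, 14 were called in control cells with tamoxifen.

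**Figure D1:**
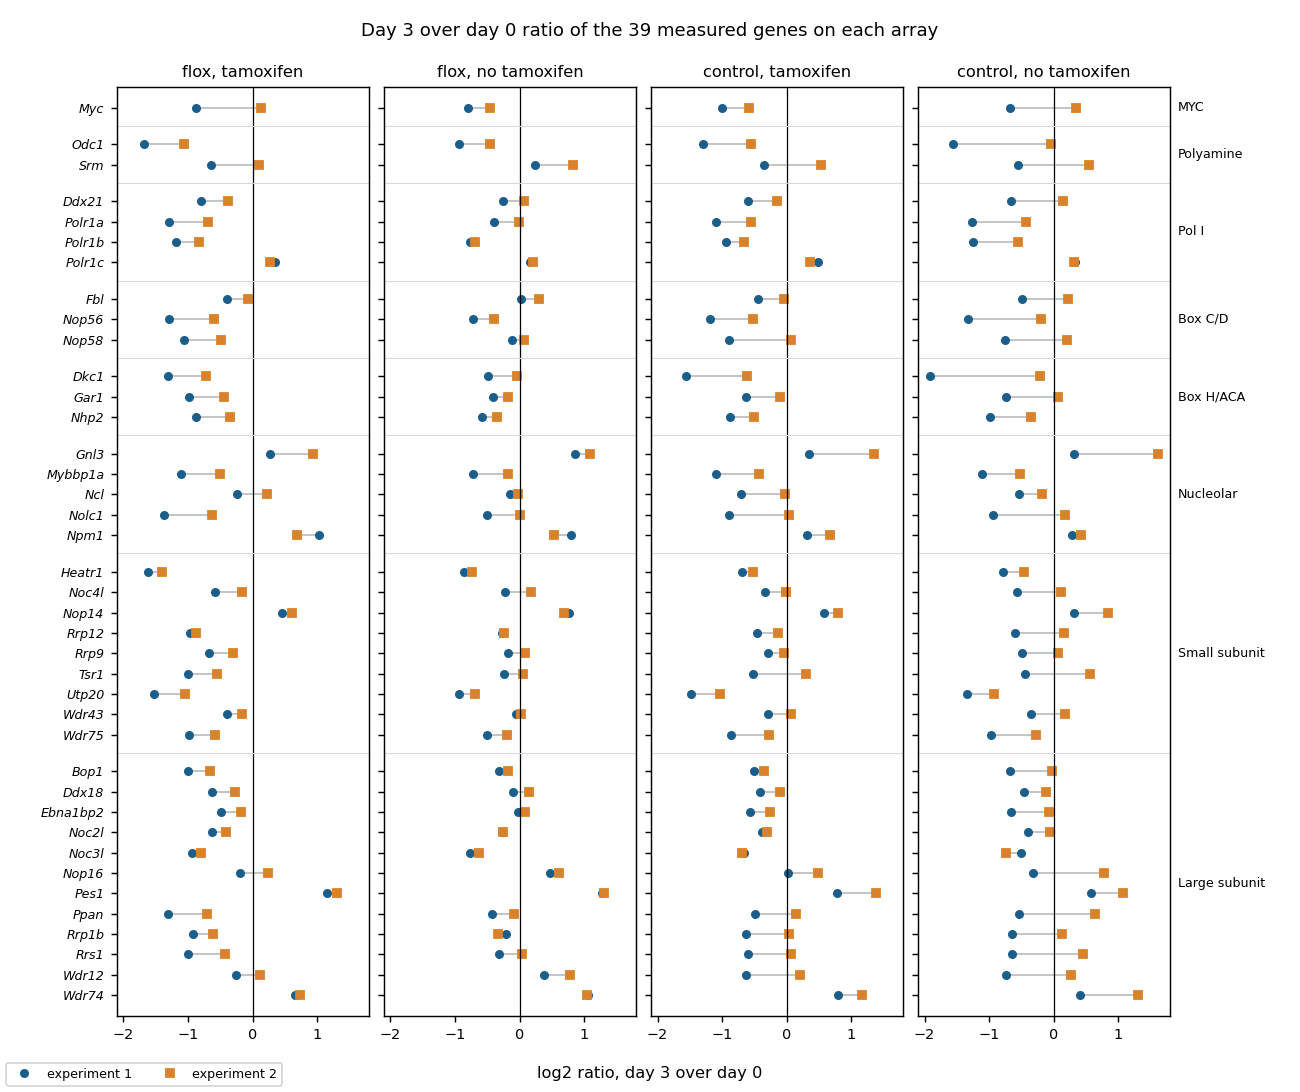
Log2 ratio of day 3 over day 0 (horizontal axis) of the 39 measured genes, grouped by role, on each array of the 4 groups; circles are experiment 1 and squares experiment 2, joined by a grey line. Squares lie right of circles for most genes, and Pes1, Wdr74, Gnl3, Nop14, Npm1 and Polr1c lie right of 0 on all 8 arrays.

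**Figure D2:**
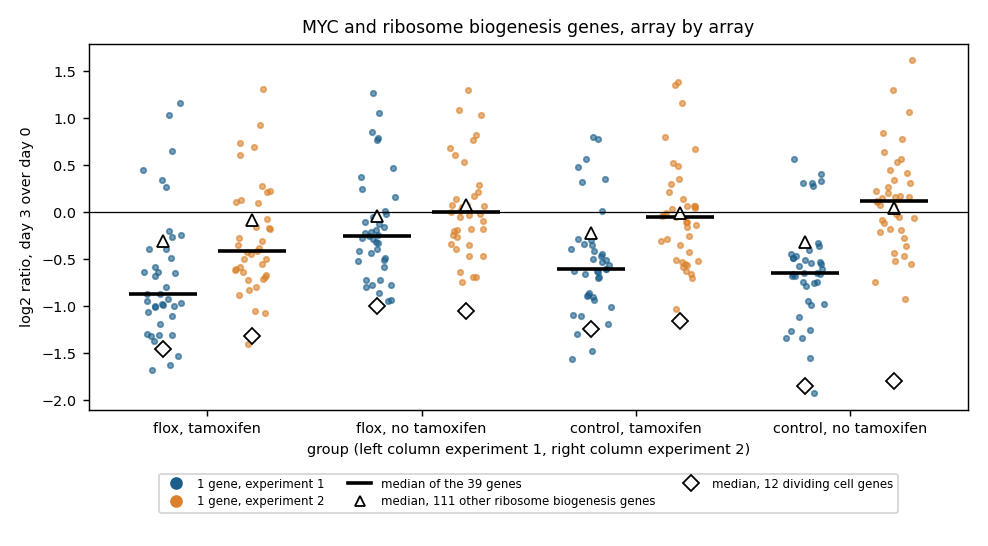
The same log2 ratios pooled by array, with 1 point for each of the 39 genes, a bar at their median, a triangle at the median of 111 other ribosome biogenesis genes and a diamond at the median of 12 dividing cell genes. The bar is lowest in flox cells with tamoxifen in experiment 1, at -0.87, and highest in control cells without tamoxifen in experiment 2, at 0.12.

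Myc itself (probe at chr15:61821417-61821476, mm9) had log2 ratios of -0.87 and 0.13 in flox cells with tamoxifen, -0.80 and -0.46 in flox cells without it, -1.003 and -0.58 in control cells with tamoxifen, and -0.68 and 0.34 in control cells without it. The groups overlapped. Myc fell in flox cells without tamoxifen (-0.63 ± 0.14, SE, adjusted p = 0.00919) and in control cells with tamoxifen (-0.79 ± 0.14, adjusted p = 0.00357). In flox cells with tamoxifen the value was -0.37 ± 0.14 (adjusted p = 0.0611) and in control cells without it -0.17 ± 0.14 (adjusted p = 0.347).

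The polyamine enzymes differed from each other. Srm, spermidine synthase (chr4:147968433-147968492, mm9), had log2 ratios of -0.65 and 0.10 in flox cells with tamoxifen, 0.24 and 0.82 in flox cells without it, -0.35 and 0.53 in control cells with tamoxifen, and -0.55 and 0.54 in control cells without it. It was called in flox cells without tamoxifen alone among the 4 groups, as higher. In control cells without tamoxifen the mean was -0.01, and a second probe had 0.16. Odc1, ornithine decarboxylase, the first enzyme of polyamine synthesis (chr12:17557831-17557890, mm9), had -1.68 and -1.07 in flox cells with tamoxifen, -0.94 and -0.46 in flox cells without it, -1.29 and -0.56 in control cells with tamoxifen, and -1.55 and -0.05 in control cells without it. Odc1 fell in all 4 groups. Of 2 further Odc1 probes, 1 was below 0 in all 4 groups and the other had means of -0.27, 0.51, 0.47 and 0.42 in the same order, so the direction of Odc1 in 3 of the groups rests on the choice of probe.

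The 3 RNA polymerase I subunits moved in 2 directions. Polr1b, the second largest subunit, fell in all 4 groups, by between 0.73 and 1.01 on the log2 scale. Polr1a, the largest subunit, fell in flox cells with tamoxifen and in both control groups. Polr1c, which RNA polymerase III shares, rose in 3 groups and stood at 0.19 ± 0.07 (adjusted p = 0.0605) in flox cells without tamoxifen. Ddx21, a helicase of nucleolar RNA, fell in flox cells with tamoxifen (-0.59) and in control cells with tamoxifen (-0.38). In flox cells without tamoxifen its mean was -0.09, and a second probe had 0.13. That probe had -0.96 in flox cells with tamoxifen and -0.13 in control cells with it, so the size of both falls rests on the choice of probe.

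Among the snoRNP proteins, Nop56 of the box C/D class and Nhp2 of the box H/ACA class fell in all 4 groups. Dkc1, the pseudouridine synthase dyskerin, and Gar1 fell in all groups but flox cells without tamoxifen, where Dkc1 stood at -0.27 ± 0.20 (adjusted p = 0.299) and Gar1 at -0.30 ± 0.11 (adjusted p = 0.0504). Nop58, the partner of Nop56, fell in both groups with tamoxifen, at -0.78 in flox cells and -0.41 in control cells. Its 2 control arrays with tamoxifen had opposite signs, -0.90 and 0.07. So did those of Gar1 in control cells without tamoxifen, -0.75 and 0.07. Fbl, fibrillarin, the methyltransferase of box C/D particles (chr7:28964229-28964288, mm9), was called in none of the 4 groups. Its log2 ratios were -0.39 and -0.07 in flox cells with tamoxifen, 0.02 and 0.29 in flox cells without it, -0.44 and -0.04 in control cells with tamoxifen, and -0.48 and 0.23 in control cells without it. A second Nop56 probe was above 0 in all 4 groups, with means from 0.10 to 0.68, so the fall of Nop56 also rests on the choice of probe.

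Of the nucleolar scaffold and chaperone genes, Npm1, nucleophosmin (chr11:33056689-33056991, mm9), had log2 ratios of 1.03 and 0.69 in flox cells with tamoxifen, 0.79 and 0.53 in flox cells without it, 0.32 and 0.68 in control cells with tamoxifen, and 0.28 and 0.42 in control cells without it. All 8 arrays were above 0, and it was called higher in every group but control cells without tamoxifen (0.35 ± 0.13, adjusted p = 0.0579), where 1 of 3 further probes had a mean of -0.06. Ncl, nucleolin (chr1:88247953-88248012, mm9), had -0.24 and 0.22 in flox cells with tamoxifen, -0.15 and -0.03 in flox cells without it, -0.70 and -0.03 in control cells with tamoxifen, and -0.54 and -0.18 in control cells without it. Ncl fell in both control groups and was called in neither flox group. Gnl3, nucleostemin, a nucleolar GTP-binding protein of stem and dividing cells, rose in all 4 groups by between 0.60 and 0.97. Mybbp1a, which binds MYB and is found in the nucleolus, fell in all 4 groups by between 0.45 and 0.82. Nolc1, a chaperone of snoRNPs, fell in every group but flox cells without tamoxifen, where it stood at -0.26 ± 0.11 (adjusted p = 0.0868). A second Nolc1 probe had means of -0.99 and -0.12 in flox cells with and without tamoxifen. In control cells it had -0.10 with tamoxifen and -0.13 without it, so the fall of Nolc1 in control cells rests on the choice of probe.

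Of 9 small subunit factors, Utp20 and Heatr1, large scaffold proteins of the small subunit processome, and Wdr75 fell in all 4 groups. Nop14 rose in all 4, with means from 0.53 to 0.73. Noc4l, Rrp9, Rrp12, Tsr1 and Wdr43 were called lower in flox cells with tamoxifen and in no other group. Their means there ran from -0.93 for Rrp12 to -0.28 for Wdr43, against values from -0.26 to -0.02 in flox cells without tamoxifen. A second Wdr43 probe had means of -1.11, -0.52, -0.51 and -0.43 in the 4 groups. The size of the Wdr43 change therefore rests on the choice of probe, and its call in flox cells with tamoxifen alone may do so too.

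Of 12 large subunit factors, Noc3l and Noc2l fell in all 4 groups, and Pes1 and Wdr74 rose in all 4. Pes1 had means of 1.23, 1.29, 1.08 and 0.82 in flox cells with and without tamoxifen and control cells with and without it. Pes1 works in 1 complex with Bop1 and Wdr12. Bop1 fell in flox cells with tamoxifen (-0.83) and in both control groups (-0.43 with tamoxifen and -0.35 without it), and Wdr12 was called in flox cells without tamoxifen alone, as higher (0.57). Ddx18 and Ebna1bp2 fell in every group but flox cells without tamoxifen. Ppan, Rrs1 and Rrp1b were called in flox cells with tamoxifen alone, as lower, at -1.01, -0.71 and -0.77. Nop16 was called in flox cells without tamoxifen alone, as higher (0.54). A second Ebna1bp2 probe was above 0 in all 4 groups, with means from 0.63 to 1.08. Another had -0.10 in flox cells without tamoxifen, where the brightest had 0.03.

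With tamoxifen 6 of the 39 genes were lower in flox cells and none was higher. The effect of tamoxifen is the log2 ratio with it minus the ratio without it, and because both arrays of an experiment share the day 0 extract, it compares day 3 RNA. Among all genes tested 9.02% were called, 4.16% as lower and 4.87% as higher. The median effect over the 39 was -0.42, with -0.54 in experiment 1 and -0.36 in experiment 2, beside -0.01 over all genes. Below 0 in both experiments were 33 of the 39, and 23 had an unadjusted p below 0.05. Counts by sign and by unadjusted p, here and below, come without the share over all genes and only describe the listed genes. The 6 called genes were Heatr1, Polr1a, Srm, Ddx18, Nolc1 and Utp20.

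Heatr1 (chr13:12531103-12531160, mm9), which is also needed for transcription of ribosomal RNA genes, had log2 ratios of -1.63 and -1.40 in flox cells with tamoxifen, against -0.86 and -0.74 in flox cells without it. In control cells it had -0.68 and -0.52 with tamoxifen and -0.78 and -0.47 without it. The 2 flox arrays with tamoxifen were the lowest of the 8. The effect in flox cells was -0.72 ± 0.10 (SE, adjusted p = 0.0115), or 0.609 times the level without tamoxifen, and in control cells it was 0.02 ± 0.10.

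Polr1a (chr6:71929251-71929310, mm9) had -1.29 and -0.68 in flox cells with tamoxifen, against -0.39 and -0.02 without it. Control cells had -1.09 and -0.55 with tamoxifen and -1.26 and -0.43 without it. The flox arrays without tamoxifen were the highest of the 8, and within each experiment the flox array with tamoxifen was the lowest of the 4. The effect in flox cells was -0.78 ± 0.13 (adjusted p = 0.0181), and in control cells 0.02 ± 0.13.

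Srm showed the same order. Within each experiment the flox array with tamoxifen was the lowest of the 4 and the one without it the highest, and the effect in flox cells was -0.80 ± 0.14 (adjusted p = 0.0216), against 0.10 ± 0.14 in control cells. A second Srm probe gave an effect of -0.79 in flox cells.

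Nolc1 (chr19:46158875-46158934, mm9) had -1.36 and -0.63 in flox cells with tamoxifen, against -0.51 and 0.00 without it. Control cells had -0.89 and 0.04 with tamoxifen and -0.94 and 0.17 without it. Within each experiment the flox array with tamoxifen was the lowest of the 4. The effect in flox cells was -0.74 ± 0.15 (adjusted p = 0.0364), against -0.04 ± 0.15 in control cells.

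Ddx18 (chr1:123450472-123450531, mm9), a helicase whose yeast relative acts on the large subunit, had -0.63 and -0.27 in flox cells with tamoxifen, against -0.11 and 0.15 without it. Control cells had -0.41 and -0.10 with tamoxifen and -0.47 and -0.12 without it. The flox array with tamoxifen was again the lowest in each experiment, and the flox array without it was the highest. The effect in flox cells was -0.47 ± 0.10 (adjusted p = 0.0337), against 0.04 ± 0.10 in control cells.

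Utp20 (chr10:88209709-88209768, mm9) had -1.53 and -1.05 in flox cells with tamoxifen, against -0.94 and -0.69 without it. Control cells had -1.48 and -1.03 with tamoxifen and -1.34 and -0.92 without it. Within each experiment the flox array with tamoxifen was the lowest of the 4, by no more than 0.05 below the control array with tamoxifen, and the flox array without it was the highest. The effect in flox cells was -0.47 ± 0.10 (adjusted p = 0.0429), against -0.13 ± 0.10 in control cells.

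The other measured genes were not called. The largest uncalled effects in flox cells were -0.75 each for Ppan, Nop58 and Dkc1. Odc1 stood at -0.68 ± 0.24 (adjusted p = 0.143) and Fbl at -0.39 ± 0.13 (adjusted p = 0.132). Myc stood at 0.26 ± 0.20 (adjusted p = 0.492), with -0.07 in experiment 1 and 0.59 in experiment 2. Npm1 (0.20), Polr1c (0.12) and Ncl (0.08) were the other 3 genes with a value above 0. All 9 small subunit and all 12 large subunit factors had values below 0, with medians of -0.43 and -0.48. All 16 further probes of 12 of these genes had the sign of the brightest probe in this comparison.

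The calls in flox cells depended on the design of the fit. Without the experiment term 0 of the 39 were called, with adjusted p from 0.0662 for Heatr1 to 0.519 for Nolc1 among the 6, and 470 genes of all those tested were called. Leaving out any 1 of the 4 flox arrays left 0 called, leaving out either control array with tamoxifen left Heatr1 alone, and leaving out either control array without tamoxifen gave 17. With the day 3 channel alone 18 were called, all lower.

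In control cells none of the 39 was called with tamoxifen by limma, where 0% of all genes tested were called, and 1 of the 39 had an unadjusted p below 0.05. Every alternative also called 0 of the 39, though with median centring in place of loess 27 genes of all those tested were called. That gene was Myc, at -0.63 ± 0.20 (adjusted p = 0.758), with -0.33 in experiment 1 and -0.93 in experiment 2. The median over the 39 was -0.03, and 30 of them had opposite signs in the 2 experiments. The difference of the tamoxifen effects, flox minus control, tests whether the flox effect differs from the control effect. It called 0 of the 39, where 1.14% of all genes were called, and 12 had an unadjusted p below 0.05. The median difference was -0.41, with -0.68 in experiment 1 and -0.16 in experiment 2, and 31 of the 39 were below 0 in both. Heatr1 stood at -0.73 ± 0.14 (adjusted p = 0.0751), Srm at -0.90 ± 0.20 (adjusted p = 0.0965) and Myc at 0.89 ± 0.28 (adjusted p = 0.203). With the day 0 extract as a random block 3 were called, and with the day 3 channel alone 2, all lower. The lower values in flox cells were therefore not shown by this test to differ from control cells.

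**Figure D3:**
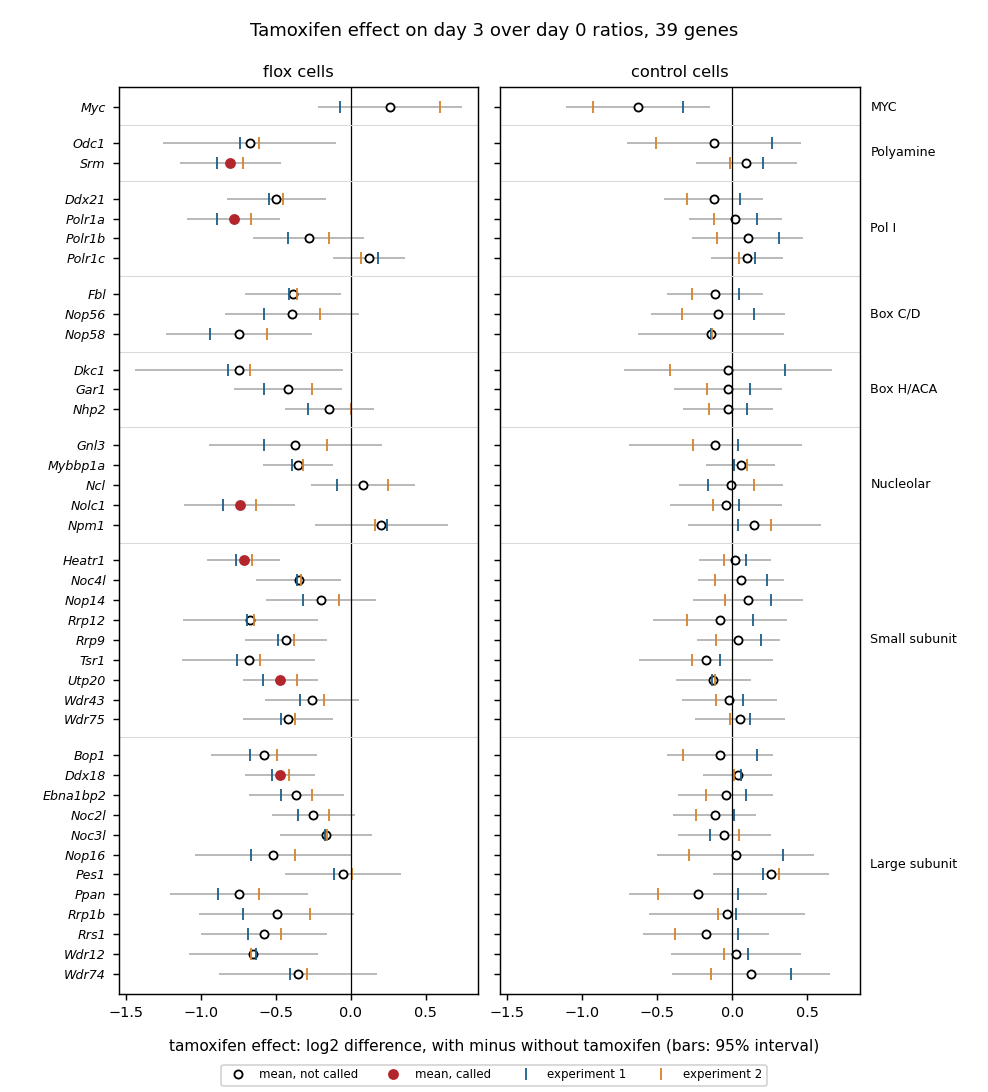
Tamoxifen effect, the log2 difference with minus without tamoxifen (horizontal axis), on the 39 genes in flox cells (left) and control cells (right); circles are the mean, filled where called, bars are 95% intervals and ticks the 2 experiments. In flox cells 35 means lie left of 0, and in control cells 23 do.

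Part of the dividing cell markers fell with tamoxifen in flox cells. Of 12 dividing cell markers, all well above background at day 3 on all 8 arrays, 6 fell with tamoxifen in flox cells and none rose (median -0.42), for example Ube2c (-1.14) and Cdc20 (-1.06), both named after their values were seen. In control cells none of the 12 was called with tamoxifen, 11 had an unadjusted p below 0.05, and the median was 0.60. Their difference between the genotypes was called for 6, all lower in flox cells (median -0.99). Without tamoxifen 10 of the 12 were higher in flox than in control cells (median 1.00). Of 7 megakaryocyte and platelet markers 2 fell with tamoxifen in flox cells (median -0.16). Other lists held genes called in both directions, named here by smallest p. Fcgr1 fell (-0.86) and Cd68 rose (0.99) among macrophage markers, and Cd34 fell (-0.70) and Cd48 rose (0.55) among stem and progenitor markers. The neutrophil marker Mmp8 rose (0.72), and the B lineage marker Cd79b fell (-1.09). Of 7 stromal markers 1 rose (median 0.59), and the median stromal log2 ratio was 0.45 on the flox array with tamoxifen of experiment 2, against -1.08 to -0.38 on the other 7 arrays. The part of these markers in the values of the 39 genes was not tested.

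Related genes outside the 40 were measured too. Of 111 other ribosome biogenesis genes 7 fell and none rose with tamoxifen in flox cells, and their median was -0.22. The shares called in this list, in nucleotide synthesis and in the MYC network were near the 9.02% of all genes. Among those that fell were Gtpbp4 (-0.83 ± 0.16, adjusted p = 0.0269), Bysl (-0.69 ± 0.13), Rrp15 (-0.68 ± 0.12) and Utp4 (-0.67 ± 0.12). On the arrays this list also had lower medians in experiment 1, from -0.32 to -0.04, than in experiment 2, from -0.09 to 0.08. Of 20 nucleotide synthesis genes 2 fell and none rose (median -0.13): Ppat, the enzyme of the first committed step of purine synthesis (-0.71 ± 0.14, adjusted p = 0.0305), and Ctps, CTP synthase (-0.80 ± 0.17, adjusted p = 0.0396). Of 11 further polyamine genes none was called by limma and 5 had an unadjusted p below 0.05, among them Sat1, the acetyltransferase that starts polyamine breakdown, at 0.55 ± 0.14 (adjusted p = 0.0659), and the median was 0.26. Of 10 genes of the MYC network 1 rose, Mnt, a MAX partner that opposes MYC (0.74 ± 0.13, adjusted p = 0.0234), and none fell.

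**Figure D4:**
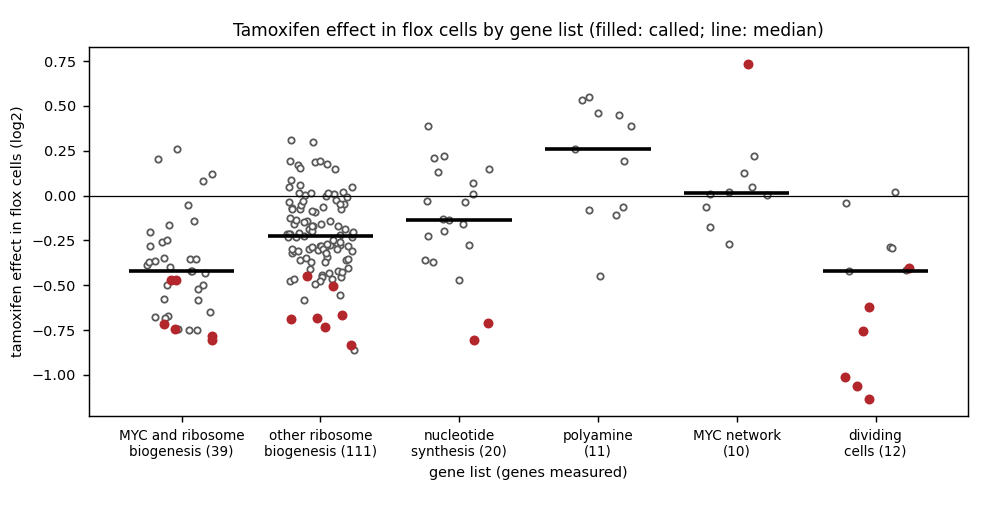
Tamoxifen effect in flox cells on the log2 scale (vertical axis) for the 39 genes and 5 other gene lists, with 1 point per gene, filled where called, and a bar at the median. The medians are -0.42 for the 39 genes, -0.22 for other ribosome biogenesis genes and -0.42 for dividing cell genes, with -0.13 for nucleotide synthesis, 0.26 for further polyamine genes and 0.02 for the MYC network.

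At day 3 of control cells without tamoxifen 57.3% of all genes were called, 34.1% as lower and 23.3% as higher. The MYC network held 3 genes that rose and 4 that fell, of 10. Mycn, a relative of Myc, fell by 2.20 ± 0.12 on the log2 scale (adjusted p = 5.98e-05), and Mxd3 by 0.62 ± 0.11. Mlx rose (0.43 ± 0.09). Mxd1 fell (-0.72 ± 0.16), with -0.07 in experiment 1 and -1.36 in experiment 2. Of 20 nucleotide synthesis genes 13 fell and 1 rose (median -0.51), led by Prps1 (-1.38 ± 0.07) and Shmt2 (-1.24 ± 0.08). Of the 111 other ribosome biogenesis genes 45 fell and 21 rose (median -0.09). Nop53 (1.26 ± 0.08) was among those that rose, and Utp6 (-0.88 ± 0.07) and Dhx37 (-0.82 ± 0.07) among those that fell. Of 11 further polyamine genes 4 fell and 2 rose, for example Oaz1, antizyme (-0.32 ± 0.08). The shares of the ribosome biogenesis and polyamine lists called were near that of all genes.

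Flox cells were also set against control cells, by the difference of their day 3 over day 0 ratios. With tamoxifen in both, 2 of the 39 were lower and none higher, where 11.3% of all genes were called, 5.84% as lower. The difference for Heatr1, whose values on the arrays are given above, was -0.91 ± 0.10 (adjusted p = 0.00762). Ppan, whose yeast relative acts early in the large subunit (chr9:20696546-20696605, mm9), had log2 ratios of -1.31 and -0.71 in flox cells and -0.49 and 0.14 in control cells, both with tamoxifen. The difference for Ppan was -0.83 ± 0.19 (adjusted p = 0.0411). The median over the 39 was -0.20, and 30 of them were below 0 in both experiments. Leaving out any 1 of the 4 arrays compared left 0 called, and leaving out either control array without tamoxifen gave 7. In the same comparison 4 of 12 neutrophil and precursor markers were lower (median -0.26), and at day 0, the denominator of these ratios, 4 of the 12 were higher in flox cells (median 1.03). Their part in the differences was not tested.

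Without tamoxifen in either genotype none of the 39 was called by limma, where 2.87% of all genes were called, and 9 had an unadjusted p below 0.05. The median was 0.17, with 0.40 in experiment 1 and -0.14 in experiment 2. Polr1a stood at 0.64 ± 0.13 (adjusted p = 0.0567) and Wdr12 at 0.81 ± 0.18 (adjusted p = 0.0671). With the day 3 channel alone 5 were called, all higher in flox cells. At day 0, from the day 0 channels of the 4 extracts, none of the 39 was called and none had an unadjusted p below 0.05, where 0.339% of all genes were called. The differences, flox minus control, ran from -0.14 to 0.32 with a median of 0.10.

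Promoter sequences were taken from RefSeq (GRCm38.p6) for 33 of the 40 genes. Each window ran from 250 bases before to 50 bases after the annotated start of transcription. The E-box CACGTG, the site that MYC and MAX bind best, reads the same on both strands. It was found in 5 of the 33 genes, or 15.2%, and in 8.09% of the 27025 genes with a window. A variant, CACGCG or on the other strand CGCGTG, was found in 10 of the 33, or 30.3%, and in 10.5% of all genes. The E-box and the variant cannot overlap each other, while the variant on both strands can. Utp20, which was called lower with tamoxifen in flox cells, was 1 of the 5, and the others were Pes1, Mybbp1a, Tsr1 and Wdr43. Their windows are shown because they hold the motif, and that of Heatr1 because it had the smallest p among the 39 with tamoxifen in flox cells. In the lines of the 5 genes the E-box is in capitals. The Heatr1 window holds neither the E-box nor the variant.
Utp20 (chr10:88826765-88827064, minus strand): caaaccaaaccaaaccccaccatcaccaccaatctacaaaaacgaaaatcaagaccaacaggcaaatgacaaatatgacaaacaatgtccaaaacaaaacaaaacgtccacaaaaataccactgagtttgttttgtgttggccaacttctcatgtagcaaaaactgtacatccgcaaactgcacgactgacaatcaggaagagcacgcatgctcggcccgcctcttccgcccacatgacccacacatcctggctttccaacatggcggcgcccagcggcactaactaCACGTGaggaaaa
Pes1 (chr11:3963725-3964024, plus strand): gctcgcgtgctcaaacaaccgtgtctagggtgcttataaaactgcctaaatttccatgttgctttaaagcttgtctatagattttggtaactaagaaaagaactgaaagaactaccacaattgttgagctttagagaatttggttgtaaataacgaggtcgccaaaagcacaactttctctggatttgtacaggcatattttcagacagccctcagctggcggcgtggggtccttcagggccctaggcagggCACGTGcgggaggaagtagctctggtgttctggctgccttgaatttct
Mybbp1a (chr11:72441077-72441376, plus strand): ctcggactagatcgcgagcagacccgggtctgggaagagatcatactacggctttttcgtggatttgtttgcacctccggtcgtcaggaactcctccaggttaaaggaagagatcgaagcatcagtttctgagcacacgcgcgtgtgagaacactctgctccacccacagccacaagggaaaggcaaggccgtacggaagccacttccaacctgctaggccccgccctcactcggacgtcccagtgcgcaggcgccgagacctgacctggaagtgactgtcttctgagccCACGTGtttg
Tsr1 (chr11:74897830-74898129, plus strand): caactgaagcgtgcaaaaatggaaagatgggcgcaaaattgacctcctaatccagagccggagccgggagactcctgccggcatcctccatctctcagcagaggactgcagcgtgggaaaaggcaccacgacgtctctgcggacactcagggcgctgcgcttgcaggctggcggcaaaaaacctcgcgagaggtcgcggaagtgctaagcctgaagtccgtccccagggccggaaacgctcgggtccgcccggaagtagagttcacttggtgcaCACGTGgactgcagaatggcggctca
Wdr43 (chr17:71615965-71616264, plus strand): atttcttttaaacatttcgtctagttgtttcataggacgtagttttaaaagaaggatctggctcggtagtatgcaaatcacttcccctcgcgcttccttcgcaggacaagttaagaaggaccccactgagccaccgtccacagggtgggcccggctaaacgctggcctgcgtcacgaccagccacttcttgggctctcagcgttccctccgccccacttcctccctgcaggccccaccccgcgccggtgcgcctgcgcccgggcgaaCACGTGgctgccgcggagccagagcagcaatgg
Heatr1 (chr13:12395125-12395424, plus strand): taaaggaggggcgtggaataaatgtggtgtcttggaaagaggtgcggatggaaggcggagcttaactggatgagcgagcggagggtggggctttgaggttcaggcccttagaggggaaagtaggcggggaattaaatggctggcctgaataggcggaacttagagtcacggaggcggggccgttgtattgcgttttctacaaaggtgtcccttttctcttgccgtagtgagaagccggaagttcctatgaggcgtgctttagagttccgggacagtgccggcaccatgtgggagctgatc
In all 5 genes the E-box began after the start of transcription, at base 3 of the transcript in Pes1, 18 in Wdr43, 25 in Tsr1, 38 in Utp20 and 41 in Mybbp1a, counting the first transcribed base as 1. The 5 genes did not move alike at day 3: in flox cells with tamoxifen Pes1 rose (1.23), and Utp20 (-1.29), Mybbp1a (-0.80), Tsr1 (-0.77) and Wdr43 (-0.28) fell. A motif match describes the sequence and shows no binding.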

How the data were processed

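RNA of 8 dual-colour Agilent arrays was analysed. Per the file headers and the submitters' processing notes, the authors extracted spot intensity values with Agilent Feature Extraction 10.7.3.1. The deposited log10 ratios are dye-normalized by LOWESS, per the file headers, and the deposited value table holds the same log10 ratios turned to day 3 over day 0. Flags of each spot (well above background, saturated, outlier) were used as deposited by the authors.

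Here spot intensities were corrected with normexp (offset 50), normalized within arrays by loess in limma 3.58.1 (R 4.3.3), and turned to day 3 over day 0 on the log2 scale, not the authors' deposited scale. A probe was kept if well above background on both arrays of a group in either channel (22407 probes), and the brightest stood for a gene. The fit had 4 group means and an experiment term, with Benjamini-Hochberg adjustment over all 18003 genes. Day 0 was tested on channel values (Aquantile), with the arrays of 1 extract averaged. The replicate number marks the experiment, per the series' design text. Deviations of same-numbered arrays correlated at 0.31 to 0.73 over the pairs of groups. Probe positions are on mm9, per the file headers, and names come from RefSeq (GRCm38.p6). The number of arrays limits the precision.

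The 40 genes and all other lists were chosen with earlier results of these data known. Values on every array are given for genes called with tamoxifen in flox cells and for Myc, Srm, Odc1, Ncl, Npm1 and Fbl. Of the other lists up to 4 genes of smallest p were eligible. Further probes are given where signs of the mean day 3 over day 0 ratios differ, and for some genes where sizes differ. Alternatives covered the experiment term, normalization, filter, probes, blocks, channel and left-out arrays.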

Additional observations from a re-analysis of the deposited data

Results flagged for a closer look

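Heatr1 and Ppan differed between the genotypes by the fit's own test of the day 3 over day 0 ratio with tamoxifen. The difference, flox minus control, was -0.91 for Heatr1 (limma adjusted p = 0.00762), with -0.94 in experiment 1 and -0.88 in experiment 2. It was -0.83 for Ppan (adjusted p = 0.0411), with -0.82 and -0.85. Without tamoxifen the same difference was -0.18 for Heatr1 (adjusted p = 0.345) and -0.32 for Ppan (adjusted p = 0.372). Over all genes 11.3% were called in the comparison with tamoxifen, 5.84% as lower, beside 2 of the 39. Leaving out any 1 of the 4 arrays compared left 0 of the 39 called, and with no replicate block, the deposited value table or scaling between arrays 1 was called. No group had the 4 samples that a test for outlying samples needs.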

How the results depend on the processing

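With 2 experiments, calls rest on an error shared across genes, and dye, slide and experiment cannot be told apart. The number of the 39 genes called kept within 1.5 times the main number in flox cells with tamoxifen at day 3, in control cells with tamoxifen against without, and at day 0 under every alternative tried. Elsewhere, with no replicate block it was 8 in flox cells without tamoxifen, 14 and 12 in control cells with and without it, 0 for the tamoxifen effect in flox cells, and 1 for flox against control cells with tamoxifen. For the tamoxifen effect in flox cells (6) it was 3 with the deposited value table, 17 with the day 0 extract as a random block, 26 with the compared arrays alone and 18 with the day 3 channel alone, and 0 to 17 without 1 array. For the difference of the effects (0) it was 3 with the random block and 2 with the day 3 channel. For flox against control cells with tamoxifen (2) it was 1 with the deposited table, 1 with scaling between arrays, 4 with the mean of all probes, 4 with the compared arrays alone, 5 with the day 3 channel, and 0 to 7 without 1 array. Without tamoxifen (0) it was 2 with median centring and 5 with the day 3 channel. In control cells with tamoxifen it was 14 to 31 without 1 array. The cause was not tested. A fit of a single group's arrays alone was not run, since the experiment term leaves it no residual degrees of freedom.

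Over all genes the tamoxifen effect in flox cells called 1624 genes, against 470 with no block, 2905 with the random block, 4583 with the compared arrays alone and 224 to 2379 without 1 array. Flox against control cells called 2026 with tamoxifen (531 with no block, 1239 with the deposited table, 3142 with the day 3 channel, 0 to 3018 without 1 array) and 517 without it (2 with no block, 5 with the deposited table, 1808 with the day 3 channel, 0 with the compared arrays alone, 0 to 156 without 1 array). The difference of the effects called 205, against 22 with no block, 378 with median centring, 59 with the deposited table, 824 with the random block, 616 with the day 3 channel and 0 to 284 without 1 array. Day 0 called 61, against 16 with no block, 2 with no filter and 60 to 275 without 1 array. Of 702 values of single genes for the tamoxifen effect in flox cells, 580 kept their direction and call, 48 lost and 69 gained the call, and 5 uncalled values changed sign.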
